A study of Mus musculus with 20 samples.

Results

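The ETS, SOX-F and GATA transcription factors of endothelium were followed as 10 genes: Erg, Fli1, Ets1, Ets2, Elk3, Gata2, Tal1, Sox7, Sox17 and Sox18. Each was read through the probe set to which the platform annotation gives that symbol and no other, and every one of the 10 had 1 such probe set. Every array, 20 of 20, had each of the 10 above its median value, so all 10 passed the filter for testing (a value over the median of at least 4 arrays) and stood among 14178 genes tested. The cells were CD31+CD45-Ter119- endothelial cells, sorted by flow cytometry from mouse ears, and each array used 1 ng of total RNA. NICD mice (NICD1-EC-OE, genotype label Pdgfb-CreERT2; R26-NICD) make a constitutively active Notch1 intracellular domain in endothelium after tamoxifen, which by the protocol was injected 5 times. The growth protocol names CDH5-iCre with RosaNICD/NICD in place of the Pdgfb driver, so the driver cannot be told from the labels. Control mice are labelled as control with no further detail, and the labels give neither age nor sex. By the protocol, which is the same text for all arrays, the skin was sensitised with the hapten dinitrofluorobenzene (DNFB) on days 0 and 1, the ear was challenged on day 5, and tissue was collected 24 hours after the challenge. There were 4 NICD DNFB, 4 NICD vehicle, 6 control DNFB and 6 control vehicle arrays. The labels do not say whether a vehicle ear and a DNFB ear came from the same animal, nor how many ears made up an array, so p-values measure the spread between arrays, which may in part be technical.

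ETS factors bind a short GGAA-centred element that is found in the control regions of most genes restricted to endothelium, and Erg and Fli1 are the members best known for keeping such genes active in mature vessels. Gata2 and Tal1 bind together with LMO2 in a complex that acts in endothelium and in blood progenitors. The SOX-F group (Sox7, Sox17 and Sox18) acts in the formation of arteries, veins and lymphatic vessels, and Notch signalling, which acts through RBPJ, is closely tied to arterial identity.

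The promoter letters of the members are shown because these factors are known to bind at each other's control regions. RefSeq promoter windows (build GRCm38.p6, 250 bases before to 50 after a start) were matched by symbol for 5 of the 10 members, Erg (3 starts), Ets2 (1), Elk3 (1), Gata2 (2) and Tal1 (2), and not for Fli1, Ets1, Sox7, Sox17 or Sox18. Short motif letters were searched on both strands: GGAAG for ETS factors, GATAA for GATA factors, ACAAT for SOX factors and TGGGAA for RBPJ, of which GGAAG and TGGGAA can overlap. In the windows printed here, 5′ to 3′ in the direction of transcription, capitals mark a match on either strand.
Erg, chr16:95459299-95459598, minus strand: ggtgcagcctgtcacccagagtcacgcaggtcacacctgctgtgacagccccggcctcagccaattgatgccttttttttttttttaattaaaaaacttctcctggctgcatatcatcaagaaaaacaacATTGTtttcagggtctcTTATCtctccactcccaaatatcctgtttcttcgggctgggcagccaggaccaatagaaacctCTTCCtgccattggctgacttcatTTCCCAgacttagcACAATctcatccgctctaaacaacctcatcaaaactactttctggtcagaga
Tal1, chr4:115056176-115056475, plus strand: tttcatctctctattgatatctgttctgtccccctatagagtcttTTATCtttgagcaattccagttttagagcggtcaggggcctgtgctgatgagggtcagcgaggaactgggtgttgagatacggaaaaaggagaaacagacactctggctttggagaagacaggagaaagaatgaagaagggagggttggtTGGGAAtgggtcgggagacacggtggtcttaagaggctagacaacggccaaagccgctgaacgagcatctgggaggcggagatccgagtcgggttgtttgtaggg
Elk3, chr10:93311110-93311409, minus strand: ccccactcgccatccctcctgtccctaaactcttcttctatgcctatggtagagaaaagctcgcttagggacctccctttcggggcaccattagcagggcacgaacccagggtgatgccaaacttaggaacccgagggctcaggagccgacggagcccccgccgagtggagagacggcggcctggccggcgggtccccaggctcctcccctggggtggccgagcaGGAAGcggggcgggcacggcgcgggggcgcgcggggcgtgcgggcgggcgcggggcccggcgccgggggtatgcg
The Erg window held all 4 motifs, with 2 ACAAT matches and 1 of each of the others. The Tal1 window held 1 GATAA and 1 TGGGAA match, and the Elk3 window 1 GGAAG match. The other Tal1 window held 2 GGAAG matches and another Erg window 1, whereas the remaining Erg window, the Ets2 window and both Gata2 windows held none of the 4. Among all 32851 windows, 71.4% held GGAAG, 25.4% GATAA, 31% ACAAT and 25.6% TGGGAA, and 1.98% held all 4. These are letter matches and no measure of binding. In the annotation of the same build, Ets1 and Fli1 lie on chromosome 9 with 92808 bases and 0 protein-coding genes between them, and Ets2 and Erg on chromosome 16 with 115806 bases and 0 protein-coding genes between them.

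Values are log2 expression values, summarised by the authors with robust multi-array averaging (RMA), and a difference of 1 is a doubling. Array medians ran from 3.52 to 3.62 in NICD arrays and from 3.87 to 3.98 in control arrays. Xist, transcribed from the inactive X chromosome, ran from 8.47 to 9.07 in NICD arrays and from 2.27 to 3.16 in control arrays, and the Y-linked Eif2s3y from 2.11 to 2.79 in NICD arrays and from 6.08 to 7.12 in control arrays. Genotype, sex and array set therefore cannot be told apart, and the NICD minus control differences of the members are also given after each array was centred on its own median. Notch1, the gene whose intracellular domain the NICD mice make, had means of 9.76 ± 0.10 in NICD DNFB, 9.71 ± 0.16 in NICD vehicle, 9.76 ± 0.14 in control DNFB and 9.82 ± 0.12 in control vehicle arrays (SD, n = 4, 4, 6 and 6). What its probe set reads of the transgene is not given, so these values are no check of it. One array, replicate 4 of the NICD vehicle group, carries a title that says vehicle and a description that says DNFB. The title was followed, and without that array every member kept its side of the threshold in all comparisons. The sort is reflected in Pecam1 (CD31), whose means ran from 11.48 to 11.72 over the 4 groups, and in Cdh5 (VE-cadherin), from 11.77 to 12.01 (both named after their values were seen).

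DNFB lowered most of these factors. In NICD mice 6 of 10 fell and 0 rose (limma, adjusted p under 0.05 over all probe sets), where 18.1% of all probe sets tested fell and 20% rose. In control mice 9 of 10 fell and 0 rose, against a background of 23.6% lower and 23.7% higher. The median difference of the 10 was -0.52 in NICD mice, where the median of all probe sets was 0.01, and -0.71 in control mice, where it was -0.0012. Fli1, Ets2, Elk3, Gata2, Tal1 and Sox17 fell in both genotypes, Erg, Sox7 and Sox18 passed in control mice and not in NICD mice, and Ets1 passed in neither. Whether the effects differ between genotypes was tested separately and is given further on. Levels in a sorted bulk sample cannot tell fewer cells of a type from less RNA per cell. Overlap between groups is given below for each gene. How many of all probe sets did not overlap was not counted, so lack of overlap is not read as particular to these factors.

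**Figure D1:**
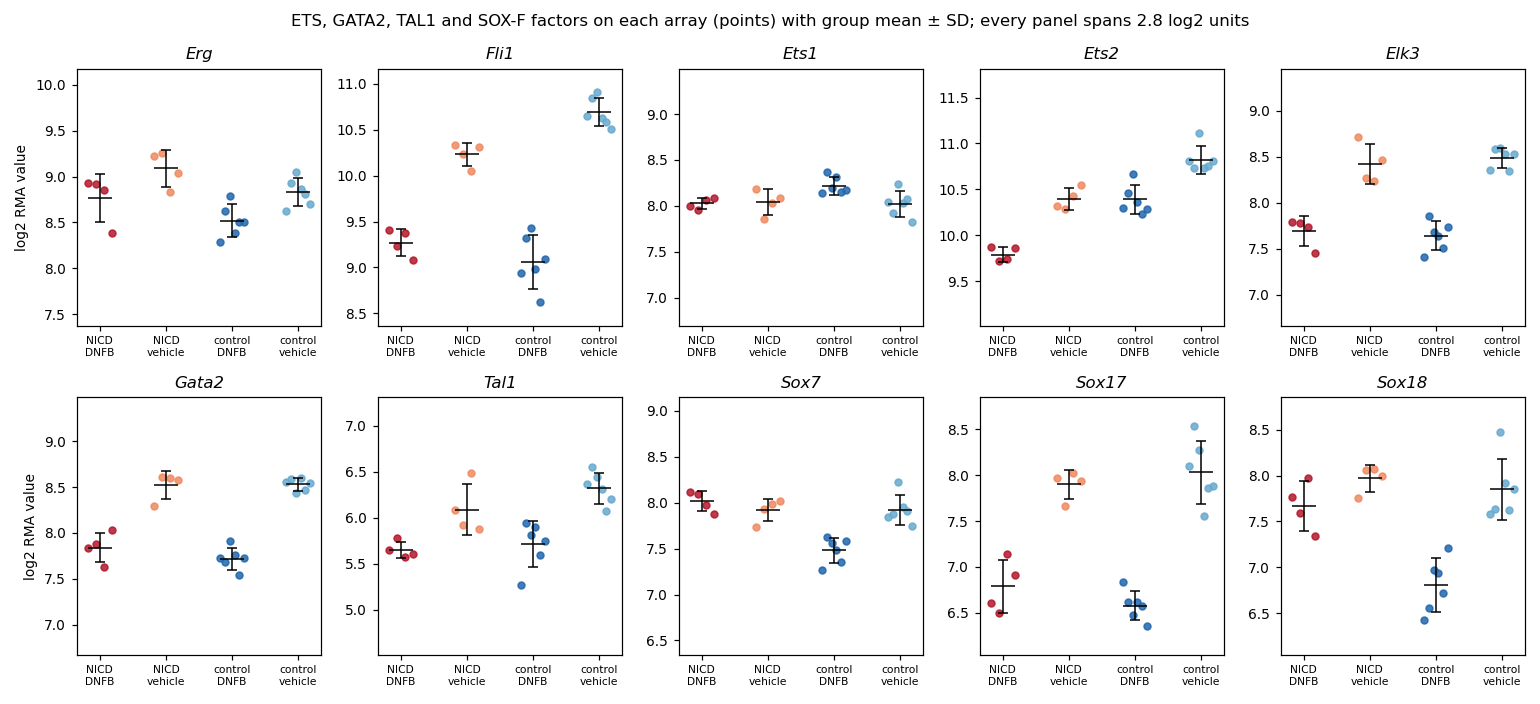
Log2 RMA value (vertical axis, 2.8 log2 units in every panel) of the 10 factors on each array (points), with group mean ± SD (bars), for NICD DNFB (n = 4), NICD vehicle (n = 4), control DNFB (n = 6) and control vehicle (n = 6) arrays. DNFB arrays sit below vehicle arrays without overlap in both genotypes for Fli1, Ets2, Elk3, Gata2, Tal1 and Sox17, and in control mice alone for Sox7 and Sox18. The share of all probe sets without such overlap was not counted.

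Fli1, an ETS factor of endothelium and megakaryocytes, had the largest fall among the 10 in control mice. Its values were 9.41, 9.23, 9.37 and 9.08 on NICD DNFB arrays, against 10.33, 10.24, 10.05 and 10.31 on NICD vehicle arrays. In control mice the lowest, median and highest were 8.62, 9.03 and 9.43 on DNFB arrays, against 10.51, 10.64 and 10.91 on vehicle arrays. In neither genotype did a DNFB array reach the lowest vehicle array. The difference was -0.96 ± 0.15 in NICD mice (SE; adjusted p = 2.92e-05), a 1.95-fold fall, and -1.62 ± 0.12 in control mice (adjusted p = 1.33e-09), a 3.08-fold fall.

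Erg, the closest relative of Fli1 among the 10, moved less. It stood at 8.93, 8.92, 8.85 and 8.38 on NICD DNFB arrays, against 9.22, 9.26, 8.83 and 9.04 on NICD vehicle arrays. In control mice it ran from 8.29 through a median of 8.51 to 8.79 on DNFB arrays, against 8.62, 8.83 and 9.05 on vehicle arrays. DNFB and vehicle arrays overlapped in both genotypes. The difference was -0.32 ± 0.14 in NICD mice (adjusted p = 0.0866) and -0.31 ± 0.12 in control mice (adjusted p = 0.0346). The control call was not held without any 1 of control DNFB replicates 1, 4, 5 or 6 or control vehicle replicates 2, 3 or 4 (adjusted p from 0.0515 to 0.0823), nor with no filter (0.0581) or with all probe sets above the filter (0.0506). The NICD difference passed without NICD vehicle replicate 3 (adjusted p = 0.0418), after quantile normalization (0.0207) and after cyclic loess (0.0185).

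Ets2, which is induced by growth factor signalling in many cells, fell to 9.87, 9.72, 9.74 and 9.86 on NICD DNFB arrays, against 10.32, 10.29, 10.43 and 10.55 on NICD vehicle arrays. On control DNFB arrays it ran from 10.23 through 10.33 to 10.67, against 10.73, 10.78 and 11.11 on control vehicle arrays. All DNFB arrays of a genotype lay below all its vehicle arrays. The difference was -0.60 ± 0.11 in NICD mice (adjusted p = 0.000246) and -0.44 ± 0.09 in control mice (adjusted p = 0.000533).

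Elk3, an ETS factor that partners with serum response factor and can repress its targets, had 7.79, 7.78, 7.73 and 7.45 on NICD DNFB arrays, against 8.71, 8.27, 8.24 and 8.46 on NICD vehicle arrays. Control DNFB arrays ran from 7.41 through 7.66 to 7.85 and control vehicle arrays from 8.34 through 8.53 to 8.60. Again no DNFB array overlapped the vehicle arrays of its genotype. Elk3 fell by 0.73 on the log2 scale in NICD mice (SE 0.12, adjusted p = 8.58e-05) and by 0.85 in control mice (SE 0.10, adjusted p = 7.72e-07), close to 1.66-fold and 1.81-fold.

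Ets1, an ETS factor linked to vessel growth, was the member that passed in neither genotype. It had 8.0, 7.96, 8.06 and 8.09 on NICD DNFB arrays, against 8.18, 7.86, 8.03 and 8.09 on NICD vehicle arrays, a difference of -0.01 ± 0.10 (adjusted p = 0.948). In control mice it ran from 8.14 through 8.18 to 8.37 on DNFB arrays, against 7.82, 8.03 and 8.24 on vehicle arrays, a difference of 0.20 ± 0.08 (adjusted p = 0.061). The groups overlapped in both genotypes, and the control difference, the largest positive one among the 10, passed without control vehicle replicate 3 (adjusted p = 0.0257), with a stricter filter (0.047), with trended and robust variances (0.0412) and with a random block for replicate number (0.0481).

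Gata2, the GATA factor of endothelium and blood progenitors, stood at 7.84, 7.88, 7.63 and 8.03 on NICD DNFB arrays, against 8.29, 8.61, 8.60 and 8.58 on NICD vehicle arrays. In control mice the lowest, median and highest were 7.54, 7.73 and 7.91 on DNFB arrays, against 8.43, 8.55 and 8.60 on vehicle arrays. The groups did not overlap in either genotype, and the fall was -0.68 ± 0.11 in NICD mice (adjusted p = 3.95e-05) and -0.81 ± 0.09 in control mice (adjusted p = 2.18e-07). Tal1, the basic helix-loop-helix factor that binds beside GATA factors, had 5.65, 5.78, 5.57 and 5.61 on NICD DNFB arrays, against 6.08, 5.92, 6.49 and 5.88 on NICD vehicle arrays. Control arrays ran from 5.27 through 5.78 to 5.94 with DNFB, against 6.07, 6.34 and 6.55 with vehicle. Tal1 did not overlap between treatments either, although in NICD mice the highest DNFB array and the lowest vehicle array lay close together. It fell by 0.44 on the log2 scale in NICD mice (SE 0.15, adjusted p = 0.0273) and by 0.62 in control mice (SE 0.12, adjusted p = 0.000355). The NICD call was not held without NICD DNFB replicate 1 (adjusted p = 0.0518), 3 (0.0665) or 4 (0.0566), without NICD vehicle replicate 3 (0.12), or after quantile normalization (0.079).

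Among the SOX-F factors, Sox17, which is known for its role in arteries, had the largest fall of the 3 in both genotypes. It stood at 6.61, 6.50, 7.14 and 6.91 on NICD DNFB arrays, against 7.97, 7.66, 8.02 and 7.94 on NICD vehicle arrays. In control mice it ran from 6.36 through 6.60 to 6.84 on DNFB arrays, against 7.56, 7.99 and 8.53 on vehicle arrays. The highest DNFB array lay below the lowest vehicle array in each genotype, with a difference of -1.10 ± 0.18 in NICD mice (adjusted p = 4.84e-05) and -1.45 ± 0.15 in control mice (adjusted p = 7.81e-08). These are falls of 2.15-fold and 2.73-fold.

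Sox18, whose mutation in humans causes lymphatic and hair defects, had 7.77, 7.59, 7.97 and 7.34 on NICD DNFB arrays, against 7.76, 8.06, 8.07 and 7.99 on NICD vehicle arrays, and these overlapped. On control arrays it ran from 6.43 through 6.83 to 7.21 with DNFB, against 7.58, 7.74 and 8.47 with vehicle, with no overlap. The difference was -0.30 ± 0.19 in NICD mice (adjusted p = 0.236) and -1.04 ± 0.16 in control mice (adjusted p = 1.4e-05), which is a 2.06-fold fall in control mice. Sox7, which acts with the other SOX-F factors in vessel formation, also passed in control mice and not in NICD mice. Its values were 8.12, 8.09, 7.97 and 7.88 on NICD DNFB arrays, against 7.74, 7.93, 7.98 and 8.02 on NICD vehicle arrays, a difference of 0.10 ± 0.11 (adjusted p = 0.539). In control mice it ran from 7.27 through 7.52 to 7.63 on DNFB arrays, against 7.75, 7.89 and 8.22 on vehicle arrays, a fall of 0.45 on the log2 scale with no overlap (SE 0.09, adjusted p = 0.000522).

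**Figure D2:**
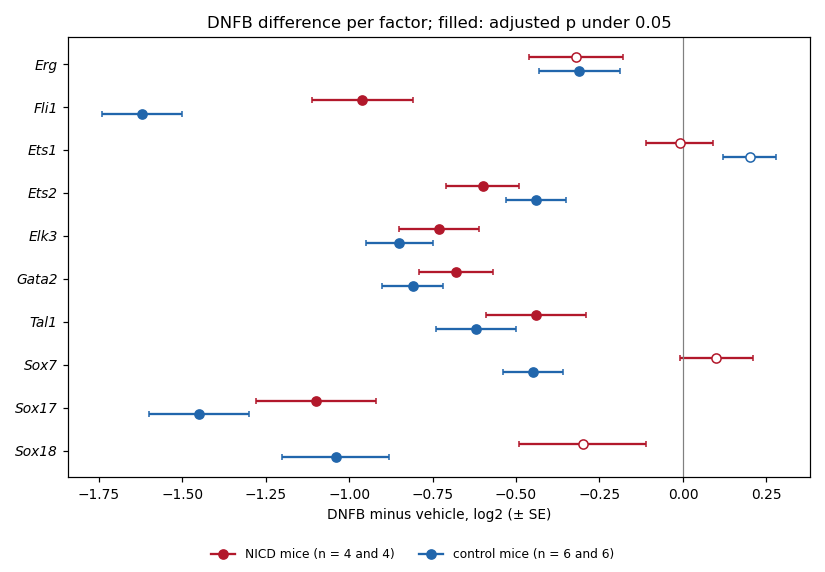
DNFB minus vehicle difference of each factor (horizontal axis, log2, bars ± SE) in NICD mice (red, 4 DNFB and 4 vehicle arrays) and in control mice (blue, 6 and 6); filled points passed adjusted p 0.05. Fli1 and Sox17 lie farthest left in both genotypes, and Sox7 and Ets1 lie nearest to 0 in NICD mice.

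Whether the DNFB effect differed between the genotypes was tested as NICD minus control, and 0 of the 10 passed, as did 0.00672% of all probe sets in the higher and 0.00672% in the lower direction (limma, the only tool run). Without adjustment, 3 of the 10 members and 1580 of 14886 probe sets had p under 0.05. These members were Fli1 (0.66 ± 0.19, adjusted p = 0.2), Sox7 (0.55 ± 0.15, adjusted p = 0.176) and Sox18 (0.74 ± 0.25, adjusted p = 0.291), and all 3 differences were positive. For the other 7 the difference ran from -0.21 for Ets1 to 0.35 for Sox17. Since the X- and Y-linked transcripts above also separate the genotypes, a difference of response between sexes and one between genotypes cannot be told apart.

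Between the genotypes, Sox7 and Sox18 were higher in NICD mice when the ears had been treated with DNFB. In DNFB ears 2 of 10 factors were higher, where 5.45% of all probe sets were, and 1 was lower, where 35.1% of all probe sets were. The members' median was 0.16, against -0.27 over all probe sets, and the NICD arrays also had the lower array medians. Sox18 ran from 7.34 to 7.97 on NICD DNFB arrays, against 6.43 to 7.21 on control DNFB arrays, and Sox7 from 7.88 to 8.12 on NICD arrays, against 7.27 to 7.63 on control arrays. Neither overlapped. The difference was 0.86 ± 0.18 for Sox18 (adjusted p = 0.000878), 1.82-fold higher, and 0.54 ± 0.10 for Sox7 (adjusted p = 0.000609), 1.45-fold higher. After centring they were 1.23 ± 0.18 (adjusted p = 8.12e-05) and 0.91 ± 0.11 (adjusted p = 9.77e-06). Both passed in each alternative run and without any 1 array.

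Ets2 was the member that was lower in NICD DNFB ears, at -0.59 ± 0.10 (adjusted p = 0.000244), and its groups did not overlap. After centring it was -0.22 ± 0.10 and did not pass (adjusted p = 0.12), although the groups still did not overlap. Centring brought the count to 7 of 10 higher and 0 lower, where 20.7% of all probe sets were higher and 8.12% lower, with a members' median of 0.54 against 0.10 over all probe sets. The 5 added were Erg (0.62 ± 0.14, adjusted p = 0.00243), Fli1 (0.58 ± 0.14, adjusted p = 0.00346), Elk3 (0.42 ± 0.12, adjusted p = 0.0144), Gata2 (0.49 ± 0.09, adjusted p = 0.000773) and Sox17 (0.58 ± 0.16, adjusted p = 0.0104). In the values as deposited these stood at 0.25, 0.21, 0.05, 0.12 and 0.21 and did not pass, so their calls rest on the scaling. Markers of endothelium moved the same way: of 15 pan-endothelial genes, 12 were higher and 0 lower after centring, with a median of 0.45, and 4 were higher and 0 lower as deposited, with a median of 0.08. The part of these markers in the members' differences was not tested. For Erg the difference also passed without NICD DNFB replicate 4 (adjusted p = 0.0261) and after quantile normalization (0.0479). Quantile normalization gave 3 of 10 members higher and cyclic loess 2 of 10, fewer than centring. Ets1 was -0.19 ± 0.09 as deposited (adjusted p = 0.109), with groups that did not overlap, and 0.18 ± 0.10 centred (adjusted p = 0.178). Tal1 likewise turned sign, at -0.06 ± 0.14 as deposited and 0.32 ± 0.14 centred (adjusted p = 0.773 and 0.0942).

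In vehicle ears 0 of 10 were higher and 2 lower in NICD mice, where 2.88% of all probe sets were higher and 33.0% lower. The lower ones were Fli1, at -0.45 ± 0.13 (adjusted p = 0.0136), and Ets2, at -0.43 ± 0.10 (adjusted p = 0.00369), and neither overlapped between genotypes. The Fli1 call was not held without NICD vehicle replicate 3 (adjusted p = 0.0518), after quantile normalization (0.073) or after cyclic loess (0.0766). After centring, Fli1 was -0.13 ± 0.14 (adjusted p = 0.559) and Ets2 -0.10 ± 0.10 (adjusted p = 0.542). On that scale 3 of 10 were higher and 0 lower, where 11.9% of all probe sets were higher and 6.54% lower: Erg at 0.59 ± 0.14 (adjusted p = 0.00628), Ets1 at 0.34 ± 0.10 (adjusted p = 0.0192) and Gata2 at 0.32 ± 0.09 (adjusted p = 0.0258). Erg passed as well after quantile normalization (adjusted p = 0.0496) and cyclic loess (0.0412). Sox7 and Sox18, which passed in DNFB ears, stood at -0.01 ± 0.10 (adjusted p = 0.964) and 0.12 ± 0.18 (adjusted p = 0.608) in vehicle ears, and centred at 0.32 ± 0.11 (adjusted p = 0.0504) and 0.45 ± 0.18 (adjusted p = 0.0966). The members' median was -0.04 against -0.28 over all probe sets, and centred 0.28 against 0.05. Of the pan-endothelial markers, 4 were higher and 0 lower in vehicle ears after centring (median 0.19), and 0 higher and 2 lower as deposited (median -0.14).

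**Figure D3:**
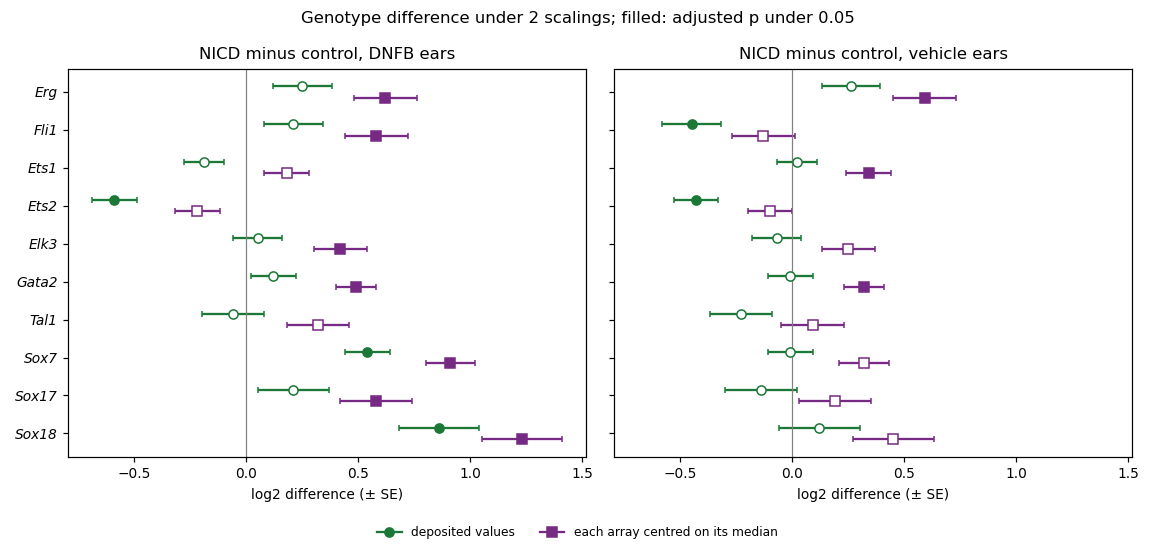
NICD minus control difference of each factor (horizontal axis, log2, bars ± SE) in DNFB ears (left, 4 and 6 arrays) and vehicle ears (right, 4 and 6 arrays), from the deposited values (green circles) and after each array was centred on its median (purple squares); filled points passed adjusted p 0.05. Sox7 and Sox18 in DNFB ears are the points filled and above 0 on both scales.

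The order of the group means was taken from the values as deposited. Fli1 was highest in control vehicle (10.69 ± 0.15), then NICD vehicle (10.23 ± 0.13), NICD DNFB (9.27 ± 0.15) and control DNFB arrays (9.06 ± 0.29), and the last pair did not differ beyond their spread. After centring the order was the same, but the last pair did not overlap (difference 0.58, adjusted p = 0.00346) and the vehicle groups did not pass (-0.13, adjusted p = 0.559). Ets2 had its lowest mean in NICD DNFB arrays (9.79 ± 0.08), while NICD vehicle (10.40 ± 0.12) and control DNFB arrays (10.39 ± 0.16) lay together below control vehicle arrays (10.82 ± 0.15). After centring the ranks were the same, but the spacing changed. Centred means were 6.25 in NICD DNFB, 6.81 in NICD vehicle, 6.47 in control DNFB and 6.91 in control vehicle arrays. On that scale the NICD vehicle mean lay nearer to control vehicle than to control DNFB arrays. For Sox18 the control DNFB mean (6.81 ± 0.29) stood below NICD DNFB (7.67 ± 0.27), NICD vehicle (7.97 ± 0.15) and control vehicle arrays (7.85 ± 0.33), whose ranges overlapped one another. Sox7 had the same order of separation, with 7.48 ± 0.14 in control DNFB arrays and 8.02 ± 0.11, 7.92 ± 0.12 and 7.92 ± 0.16 in NICD DNFB, NICD vehicle and control vehicle arrays (all SD, n = 4 for NICD and 6 for control groups). After centring, control DNFB stayed lowest for both genes, but control vehicle lay below both NICD groups. Centred Sox7 means were 3.56 in control DNFB, 4.01 in control vehicle, 4.47 in NICD DNFB and 4.33 in NICD vehicle arrays. Those of Sox18 were 2.89, 3.93, 4.12 and 4.38 in that order. For Elk3, Gata2, Tal1 and Sox17 the means of both DNFB groups lay below those of both vehicle groups, as deposited and centred.

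Within groups the members also varied from array to array. Over the 45 pairs, the Pearson correlation of deviations from the group mean across 20 arrays, each centred on its median, ran from -0.41 (Ets1 with Gata2) to 0.72 (Sox7 with Sox18, and Erg with Elk3), with a median of 0.28 and 36 pairs above 0. These points share arrays, sorts and RNA amounts, and no test was made of them. Of all genes tested, those whose pattern over the 20 centred arrays was most like that of Fli1 were Sptbn1 (r = 0.99) and Nrp1 (0.98), and for Elk3 they were Tpcn1 and Fgd5 (both 0.98). Gata2 was followed most closely by Cnot6l (0.98) and Erf (0.96), the last a repressor of the ETS family. Sox17 was most like Rassf3 and Timp4 (both 0.95), Sox18 like Cd47 (0.95) and Cyyr1 (0.94), and Sox7 like Sirt2 and Heg1 (both 0.94). For Erg these were Plpp1 and 4833439L19Rik (both 0.95), for Ets2 Tgfbr3 and Herc2 (both 0.94), and for Tal1 Ttll7 and Trim24 (both 0.92). Ets1, which passed in neither DNFB comparison, had the lowest value, at 0.88 with Sfpq and 0.87 with Rrp1. These likeness values include the differences between groups. For deviations from the group means, r was lower for every such gene, from 0.44 (Sox17 with Rassf3) to 0.91 (Fli1 with Sptbn1). It was 0.49 for Sox17 with Timp4, 0.56 for Sox7 with Heg1 and 0.59 for Ets1 with Sfpq.

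The wider families held genes that rose and genes that fell with DNFB. Of 16 other ETS factors tested, 3 rose and 5 fell in NICD mice, and 4 rose and 5 fell in control mice, with medians of -0.10 and 0.15. Ehf, an epithelial ETS factor, rose by 0.82 ± 0.29 in NICD mice and by 2.14 ± 0.24 in control mice, and Etv6, a repressor, by 0.90 ± 0.10 and 0.77 ± 0.08, whereas Etv1 fell, with differences of -1.18 ± 0.26 and -1.61 ± 0.21, and Elk4 likewise, with -0.94 ± 0.12 and -0.54 ± 0.10, in the same order of genotypes. Of 13 other GATA and SOX factors, 0 rose and 2 fell in NICD mice, and 3 rose and 4 fell in control mice. Sox6 had the largest change among them, at -1.30 ± 0.16 in NICD and -1.19 ± 0.13 in control mice. The medians of this list were -0.15 in NICD and -0.10 in control mice. Over all probe sets 20% rose and 18.1% fell in NICD mice, and 23.7% rose and 23.6% fell in control mice, so most of these counts lie near the background and show nothing particular to either family.

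Several partners of TAL1 and GATA2 fell. Of 15 tested, 7 fell and 1 rose in NICD mice and 9 fell and 1 rose in control mice, with medians of -0.46 and -0.52. Cbfa2t3, a corepressor of the complex, differed by -1.28 ± 0.14 in NICD and -1.47 ± 0.12 in control mice, Lyl1, a relative of Tal1, by -0.97 ± 0.24 and -1.22 ± 0.19, and Zfpm1, a GATA cofactor, by -0.77 ± 0.14 and -1.21 ± 0.12. Runx1, a blood and haemogenic factor, was the member of this list that rose, by 2.10 ± 0.26 and 2.27 ± 0.22. Of 24 other transcription factors of endothelium, 13 fell and 1 rose in NICD mice, and 15 fell and 1 rose in control mice, with medians of -0.42 and -0.55. Nr2f2, the venous and lymphatic factor, differed by -1.10 ± 0.17 and -1.55 ± 0.14, and Hey2, a Notch target, by -1.25 ± 0.20 and -1.27 ± 0.16, in NICD and control mice. Heyl, another Notch target, stood at -0.51 ± 0.28 in NICD mice (adjusted p = 0.175) and fell in control mice, at -1.65 ± 0.23 (adjusted p = 6.04e-06), and the difference of these effects, 1.14 ± 0.37, did not pass (adjusted p = 0.273).

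Genes at which ETS, SOX-F or GATA2 and TAL1 binding has been described were mixed. Of 29 tested, 13 of them also on the pan-endothelial marker list and 1 of them Sox7 itself, 8 rose and 9 fell with DNFB in NICD mice and 4 rose and 18 fell in control mice. The medians were 0.04 and -0.45. Tek, the angiopoietin receptor, differed by -1.45 ± 0.19 in NICD and -1.97 ± 0.16 in control mice, and Clec14a by -1.56 ± 0.21 and -2.16 ± 0.17, whereas Apln, a tip-cell ligand, rose by 2.12 ± 0.31 and 3.33 ± 0.26. Vcam1, a leukocyte adhesion molecule, rose by 2.12 ± 0.35 in NICD mice and stood at 0.69 ± 0.29 in control mice (adjusted p = 0.0557). Between genotypes, 11 were higher and 0 lower in NICD DNFB ears (23 and 0 after centring), and 3 were higher and 2 lower in vehicle ears (7 and 0 after centring). Over all probe sets, 5.45% were higher and 35.1% lower in DNFB ears (20.7% and 8.12% after centring). In vehicle ears 2.88% were higher and 33.0% lower (11.9% and 6.54% after centring). Pan-endothelial markers, which this list shares in part, were also mostly higher in DNFB ears after centring (12 of 15). Efnb2, an arterial ligand, was 0.86 ± 0.11 higher in NICD DNFB ears and 0.34 ± 0.11 higher in NICD vehicle ears, and E-selectin (Sele) was 0.87 ± 0.17 higher in DNFB ears and stood at -0.33 ± 0.17 in vehicle ears (adjusted p = 0.136).

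**Figure D4:**
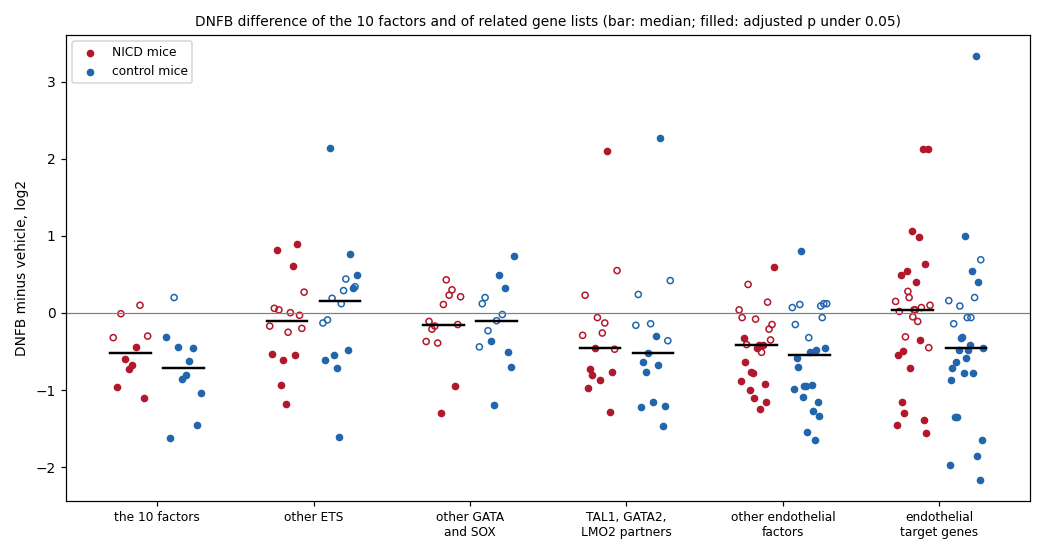
DNFB minus vehicle difference (vertical axis, log2) of the 10 factors and of the genes of 5 related lists, in NICD mice (red) and control mice (blue); each point is a gene, filled where adjusted p passed 0.05, and the bar is the list's median. The 10 factors have medians of -0.52 and -0.71 in NICD and control mice. Partners of TAL1 and GATA2 have -0.46 and -0.52, and the other endothelial factors -0.42 and -0.55. The other ETS factors straddle 0, with medians of -0.10 and 0.15. The other GATA and SOX factors have -0.15 and -0.10, and the endothelial target genes 0.04 and -0.45.

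Markers of other cells moved with DNFB beside these falls, and their part in the results was not tested. Of 15 pan-endothelial markers, 8 fell and 2 rose in NICD mice and 12 fell and 1 rose in control mice, with medians of -0.31 and -0.63, whereas Cdh5 stood at 0.15 ± 0.11 and 0.16 ± 0.09 (adjusted p = 0.325 and 0.147). The summed level of the list, as log2 of the sum of its unlogged values, ran from 13.96 to 14.18 on NICD DNFB arrays against 14.26 to 14.43 on NICD vehicle arrays, and from 13.77 to 14.07 on control DNFB arrays against 14.33 to 14.54 on control vehicle arrays. Of 7 neutrophil markers tested, 6 rose in NICD mice and 7 in control mice. Some of them, S100a8 and Retnlg included, lay below the median of every vehicle array. These passed the filter through DNFB arrays alone, so the count of rises is in part set by the filter. The summed level of the neutrophil list ran from 8.96 to 9.26 on NICD DNFB arrays against 6.56 to 6.80 on NICD vehicle arrays, and from 8.72 to 10.89 on control DNFB arrays against 6.56 to 6.90 on control vehicle arrays, with Ltf below the array median on all arrays of each group. Of 12 macrophage and monocyte markers, 6 rose in NICD mice, and 8 rose and 1 fell in control mice, among them Ptprc (CD45), which the sort gates out, at 1.56 ± 0.32 and 1.21 ± 0.26. Platelet markers rose in 4 of 6 genes in NICD and 6 of 6 in control mice. Megakaryocytes use Fli1, Gata2 and Tal1, and the part of platelet RNA in the values of these factors was not tested. Pericyte and smooth muscle markers fell in 8 of 11 and 10 of 11 genes. Fibroblast markers rose in 2 and fell in 2 of 7 genes in NICD mice and rose in 3 of 7 in control mice, and keratinocyte markers rose in 3 and fell in 1 of 10 in NICD mice and rose in 4 and fell in 2 of 10 in control mice. Mast cell markers rose in 1 of 3 genes in each genotype, T and NK cell markers in 0 of 3 and erythroid markers in 0 of 2.

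Lymphatic markers differed between the genotypes and stand beside the Sox18 result. Of 6 tested, 4 were higher in NICD DNFB ears (4 after centring) and 5 in NICD vehicle ears (6 after centring). Lyve1 was 1.01 ± 0.24 higher in NICD DNFB ears (adjusted p = 0.00313) and 1.35 ± 0.24 higher in NICD vehicle ears (adjusted p = 0.000403). The summed level ran from 11.66 to 12.42 on NICD DNFB arrays against 10.96 to 11.52 on control DNFB arrays, and from 11.19 to 12.60 on NICD vehicle arrays against 9.88 to 10.88 on control vehicle arrays. Sox18 was 0.86 ± 0.18 higher in NICD DNFB ears (adjusted p = 0.000878). In vehicle ears it stood at 0.12 ± 0.18 (adjusted p = 0.608), and centred at 0.45 ± 0.18 (adjusted p = 0.0966). Prox1, the factor that defines lymphatic endothelium and acts downstream of Sox18 in the embryo, stood at 0.21 ± 0.22 in DNFB ears (adjusted p = 0.454) and 0.47 ± 0.22 in vehicle ears (adjusted p = 0.101). After centring Prox1 stood at 0.59 in DNFB ears (adjusted p = 0.0527) and was higher in NICD vehicle ears, at 0.79 (adjusted p = 0.0173). What part lymphatic cells have in the Sox18 difference was not tested.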

How the data were processed

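Endothelial cells sorted from mouse ears were measured on 20 arrays in 4 groups, taken from the sample titles. The deposited log2 values were made by the authors with RMA in Affymetrix Expression Console, per the submitters' processing notes; versions, options and annotation are not given in the sources used here. No raw intensities were used, and the number of arrays limits the precision. Array minima were 1.18 to 1.3 in NICD and 0.412 to 0.59 in control arrays, so the genotypes may not have been summarised together.

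Of 41345 probe sets, 23521 carried 1 gene symbol, and 14886 of these (14178 genes) lay over the median in 4 or more arrays. A second Ets1 probe set, shared with Taok1, was not used. The linear model in limma (3.58.1, R 4.3.3) held a mean for each group and used all 20 arrays; moderated p-values were adjusted by Benjamini-Hochberg across the 14886 probe sets and read at 0.05. The procedure was tested on simulated data. Centred values subtract each array's median over all probe sets. Plots were made in Python 3.11.15 (matplotlib 3.10.9).

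The members and gene lists were chosen with earlier results of these data known. Named genes were the members, Notch1, up to 4 genes with the largest passing difference per list in the DNFB and in the genotype comparisons, and the 2 genes most like each member. Pecam1, Cdh5, Krt14 and Ltf fall outside that rule and were picked once their values were known.

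Alternatives were no filter, a stricter filter at the 60th percentile, all probe sets, median centring, quantile and cyclic loess normalization, array weights, trended and robust variances, a fit to the compared groups alone, a block for replicate number, and each array left out.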

Additional observations from a re-analysis of the deposited data

Results flagged for a closer look

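Over the 10 factors and 4 groups, 40 sets of arrays were looked at for an array that stood apart from the rest of its group, and 4 such arrays were found; chance alone gives about 1 in 20. Erg had its lowest NICD DNFB value, 8.38, on replicate 4, with the nearest other array at 8.85. Gata2 had its lowest NICD vehicle value, 8.29, on replicate 1, with the nearest at 8.58. In control vehicle ears, replicate 3 was highest for both Ets2, at 11.11 with the nearest at 10.81, and Sox18, at 8.47 with the nearest at 7.92.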

How the results depend on the processing

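Of the results per member under an alternative, 1440 kept direction and side of the threshold, 18 newly passed with the same sign, 20 no longer passed and 42 turned sign. Of these 42, 0 were past the threshold as reported and 1 was under the alternative, Gata2 between genotypes in vehicle ears after centring (0.32, adjusted p = 0.0258). In the DNFB comparisons, median centring turned Ets1 in NICD mice to 0.03. For NICD minus control in DNFB ears, centring turned Ets1 to 0.18 and Tal1 to 0.32, and Tal1 stood at 0.27 after quantile normalization and 0.24 after cyclic loess. In vehicle ears, centring gave Elk3 0.25, Gata2 0.32, Tal1 0.09, Sox7 0.32 and Sox17 0.19. Quantile normalization gave Elk3 0.05, Gata2 0.11, Tal1 0.01, Sox7 0.12 and Sox17 0.00063, cyclic loess gave 0.09, 0.15, 0.06, 0.16 and 0.06 in that order, and array weights gave Gata2 0.0014 and Sox7 0.01. The difference of the DNFB effects for Erg was 0.04 centred and 0.03 with array weights. With each array left out, sign turned for Ets1 in NICD mice (-0.07 to 0.03), for Ets1 (-0.03 to 0.08), Gata2 (-0.04 to 0.07) and Sox7 (-0.04 to 0.05) between genotypes in vehicle ears, and for Erg in the difference of effects (-0.09 to 0.12). The members past the threshold between genotypes in DNFB ears were 3 as reported (2 higher) and 7 centred (7 higher). They were 4 after quantile normalization (3 higher) and 3 after cyclic loess (2 higher). Probe sets past it were 6036 as reported (811 higher), 4283 centred (3074 higher), 3553 after quantile normalization (1778 higher) and 3539 after cyclic loess (1843 higher). In vehicle ears they were 5343 (428 higher), 2741 (1767 higher), 2412 (1020 higher) and 2326 (1175 higher). For the difference of effects, 2 probe sets passed as reported, 1 with no filter, 0 with all probe sets, 1 after quantile normalization, 1 after cyclic loess, 27 with trended and robust variances, 17 with array weights and 20 with a random replicate block; 0 members passed in any of these. With each array left out, members past the threshold numbered 5 to 6 for DNFB in NICD mice, 8 to 9 for DNFB in control mice, 3 to 4 between genotypes in DNFB ears, 1 to 2 in vehicle ears (1 without NICD vehicle replicate 3) and 0 to 0 for the difference of effects. Probe sets numbered 5054 to 5792, 6674 to 7035, 4852 to 6115, 4362 to 5525 and 0 to 29 in the same order of comparisons, the last reached without control DNFB replicate 6. Same-numbered DNFB and vehicle arrays had correlations of their deviations of 0.0418 to 0.269, all 10 above 0 and 5 over a set limit of 0.1, so they were not taken as pairs, although the same number was the best match for 7 of 10 replicates (3 NICD and 4 control), a hint from the data and not from the design. With replicate number as a block within genotype, 6 members passed for DNFB in NICD mice under either block, 9 in control mice with a fixed and 10 with a random block (correlation 0.0951), and 0 for the difference of effects. No member had another probe set with its symbol alone, so the use of another probe set gave no value. The causes of these changes were not tested. Genotype comparisons are limited by the difference in array medians and by sex.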

Other observations

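Between the genotypes, 5.45% of all probe sets were higher and 35.1% lower in NICD DNFB ears (20.7% and 8.12% after centring), and 2.88% higher and 33.0% lower in NICD vehicle ears (11.9% and 6.54% after centring), and the counts of lists here stand beside these shares. Of 24 other transcription factors of endothelium, 4 were higher and 6 lower in NICD DNFB ears (11 and 2 after centring), and 1 was higher and 9 lower in NICD vehicle ears (5 and 2 after centring), so the lower calls and those in vehicle ears as deposited lie near or below the background. Hey1, a direct target of Notch signalling, was 1.10 ± 0.11 higher in NICD DNFB ears (adjusted p = 1.64e-06) and 0.59 ± 0.11 higher in NICD vehicle ears (adjusted p = 0.000527), and stood at 1.47 and 0.92 after centring. The other Notch targets of the list did not share this. Hey2 stood at 0.20 in DNFB and 0.18 in vehicle ears (adjusted p = 0.407 and 0.458, centred 0.57 and 0.51, adjusted p = 0.0224 and 0.0546). Heyl stood at 0.45 in DNFB ears (adjusted p = 0.175) and was lower in vehicle ears, at -0.70 (adjusted p = 0.0411). Centred, Heyl stood at 0.82 (adjusted p = 0.0207) and -0.37 (adjusted p = 0.334). Bcl6b, a repressor of endothelium, was lower by 0.82 ± 0.13 in NICD DNFB and 0.87 ± 0.13 in NICD vehicle ears, with centred differences of -0.45 (adjusted p = 0.00973) and -0.54 (adjusted p = 0.00484). Among 15 partners of TAL1 and GATA2, 3 were higher and 3 lower in NICD DNFB ears (6 and 0 after centring), and 1 was higher and 3 lower in vehicle ears (5 and 1 after centring). Lmo2, the bridging protein of the complex, was 0.51 ± 0.14 higher in NICD DNFB ears (adjusted p = 0.00809) and 0.64 ± 0.14 higher in NICD vehicle ears (adjusted p = 0.0021), and Ssbp4, which binds LDB1, was 0.82 ± 0.12 higher in DNFB ears (adjusted p = 6.83e-05) and stood at 0.28 ± 0.12 in vehicle ears (adjusted p = 0.082). Ssbp3 went the other way, at -0.66 ± 0.12 in DNFB ears (adjusted p = 0.000397) and -0.70 ± 0.12 in vehicle ears (adjusted p = 0.000298). Centred differences in DNFB and vehicle ears were 0.88 and 0.96 for Lmo2 and 1.19 and 0.61 for Ssbp4. For Ssbp3 they were -0.29 (adjusted p = 0.0892) and -0.38 (adjusted p = 0.0413). Of 16 other ETS factors, 0 were higher and 12 lower in DNFB ears (2 and 4 after centring), and 0 higher and 8 lower in vehicle ears (0 and 1 after centring). Of 13 other GATA and SOX factors, 1 was higher and 7 lower in DNFB ears (1 and 1 after centring), the higher one being Sox13 at 0.65 ± 0.16 (adjusted p = 0.0028; centred 1.02, adjusted p = 0.000121) and the one with the largest difference Sox12 at -1.23 ± 0.19 (adjusted p = 9.74e-05; centred -0.86, adjusted p = 0.00254), and 0 were higher and 6 lower in vehicle ears (0 and 0 after centring).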
